A study of Homo sapiens with 8 samples.

Results

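The 9 genes described here are long non-coding RNA genes that host small nucleolar RNAs (snoRNAs): GAS5, SNHG1, SNHG3, SNHG4, SNHG5, SNHG6, SNHG7, SNHG8 and SNHG12. They were taken by gene symbol from the 23228 genes of the count files, and all 9 were found and were among the 13498 genes with enough counts to test. The set was proposed with results of these data known and no threshold or contrast is recorded for it. The levels and adjusted p-values below therefore describe these libraries and are no independent support for a pattern across the set.

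The libraries came from ES2 cells, an ovarian cancer line grown in McCoy's 5a medium with serum. Cells labelled KDM1A knockout (KO) lack KDM1A, a histone demethylase also called LSD1, by their label. KO cells and control cells each received vehicle or 5 µM of LY500307, which activates oestrogen receptor beta, and RNA was taken after 48 h. The 4 groups were LY500307-treated KO cells, vehicle-treated KO cells, LY500307-treated control cells and vehicle-treated control cells, with 2 libraries in each. The sources used here do not give where KDM1A was edited or whether the KO cells were 1 clone or a pool. Duplicates are described as runs on the sequencer, no text ties them to separate cultures, and the p-values then reflect the spread between libraries, which may be technical.

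snoRNAs lie in introns of their host genes and are released when the host transcript is spliced. Box C/D snoRNAs (SNORD genes) guide 2′-O-methylation and box H/ACA snoRNAs (SNORA genes) guide pseudouridylation, mostly of ribosomal RNA. The spliced host RNA of this gene family has little coding capacity. Many of the hosts begin with an oligopyrimidine tract like that of ribosomal protein mRNAs (5′TOP), are bound by ribosomes and are removed by nonsense-mediated decay, so that GAS5 is known to build up when growth and translation stop.

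The promoters of 8 of the 9 genes were in the RefSeq table used (GRCh38.p14, 250 bases before to 50 after the annotated start). Shown here are SNHG12, SNHG3, SNHG1, SNHG4 and SNHG8. SNHG12 had the largest log2 fold change under LY500307 and SNHG3 the largest under KO. The LY500307 response of SNHG1 and SNHG4 differed between KO and control cells. SNHG8 was called lower in KO cells under vehicle (log2 fold change -0.21). So was SNHG7 (-0.25), whose promoter is not shown. Capitals mark TATAA (the core of the TATA box), GCATGC (the centre of the NRF1 motif), each on either strand, and a pyrimidine tract on the gene's own strand, defined as C followed by at least 4 bases of C or T and beginning within 10 bases of the annotated start. No 2 marked motifs overlap. The windows are chr1:28581824-28582123, minus strand for SNHG12, chr1:28505693-28505992, plus strand for SNHG3, chr11:62855836-62856135, minus strand for SNHG1, chr5:139273851-139274150, plus strand for SNHG4 and chr4:118278512-118278811, plus strand for SNHG8.
SNHG12: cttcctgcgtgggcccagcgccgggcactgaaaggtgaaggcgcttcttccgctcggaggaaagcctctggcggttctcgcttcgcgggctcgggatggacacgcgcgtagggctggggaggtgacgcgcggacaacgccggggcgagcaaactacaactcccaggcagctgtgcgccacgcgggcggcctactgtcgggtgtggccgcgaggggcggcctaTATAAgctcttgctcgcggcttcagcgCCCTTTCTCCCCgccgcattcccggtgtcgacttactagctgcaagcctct
SNHG3: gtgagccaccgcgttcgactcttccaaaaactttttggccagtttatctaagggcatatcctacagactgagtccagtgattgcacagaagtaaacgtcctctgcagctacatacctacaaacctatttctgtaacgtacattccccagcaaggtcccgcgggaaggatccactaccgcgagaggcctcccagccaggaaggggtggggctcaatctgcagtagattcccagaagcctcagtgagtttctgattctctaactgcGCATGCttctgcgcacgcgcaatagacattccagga
SNHG1: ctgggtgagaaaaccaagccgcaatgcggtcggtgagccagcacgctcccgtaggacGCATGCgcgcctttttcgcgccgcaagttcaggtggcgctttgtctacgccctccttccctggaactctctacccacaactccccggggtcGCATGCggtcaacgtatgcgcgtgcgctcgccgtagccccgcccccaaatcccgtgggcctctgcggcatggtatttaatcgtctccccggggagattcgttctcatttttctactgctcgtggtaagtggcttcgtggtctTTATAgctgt
SNHG4: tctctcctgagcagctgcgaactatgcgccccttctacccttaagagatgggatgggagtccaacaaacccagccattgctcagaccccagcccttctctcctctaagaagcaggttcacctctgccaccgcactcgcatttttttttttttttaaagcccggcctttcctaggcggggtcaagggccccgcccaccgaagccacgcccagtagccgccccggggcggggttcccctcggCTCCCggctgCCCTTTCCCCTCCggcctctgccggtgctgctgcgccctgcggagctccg
SNHG8: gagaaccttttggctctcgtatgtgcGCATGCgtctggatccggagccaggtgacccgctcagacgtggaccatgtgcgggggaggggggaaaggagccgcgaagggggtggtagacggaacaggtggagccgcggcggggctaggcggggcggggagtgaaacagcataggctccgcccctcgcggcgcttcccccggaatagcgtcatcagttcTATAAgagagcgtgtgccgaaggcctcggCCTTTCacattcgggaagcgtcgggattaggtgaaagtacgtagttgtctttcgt
In SNHG12 and SNHG8 the TATAA begins 28 and 34 bases before the annotated start, and both have a pyrimidine tract at the start. SNHG4 has a pyrimidine tract but no TATAA. In SNHG1 the TATAA letters lie on the opposite strand after the start and no tract was found, and SNHG3 has GCATGC alone.

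A pyrimidine tract was present in 5 of the 8 promoters (SNHG4, SNHG5, SNHG7, SNHG8 and SNHG12), against 30.37% of all 35116 promoters in the table. In the lists compared below, it was in 8 of 11 other long non-coding hosts, 18 of 25 protein-coding hosts and 11 of 12 5′TOP translation factor genes. It was also in 4 of 6 nonsense-mediated decay targets, but in 2 of 17 decay factors and 3 of 13 snoRNP factors. TATAA was found in 5 of 8 against 20.44% of all, GCATGC in 3 of 8 against 7.216%, and the E-box CACGTG in 1 of 8 (SNHG7) against 7.256%. The palindromic oestrogen response element, searched on both strands as GGTCA and TGACC with any 3 bases between them, was in 0 of 8 and in 0.05695% of all promoters. A match describes letters in this window only, and the absence of one says nothing about a factor. A second annotated start was looked up for GAS5 alone, not for SNHG1 or SNHG3, which also had no tract. The canonical GAS5 transcript in GENCODE 44 lifted to GRCh37 begins at a different place from the RefSeq window, and its first 30 bases (chr1:173837098-173837127, minus strand) open with a tract of 6 pyrimidines, in capitals.
GAS5 start: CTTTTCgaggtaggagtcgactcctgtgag

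Totals over genes were 24348937 to 30131097 counts per library. KDM1A had 72.0 and 71.6 CPM (counts relative to the library total, scaled by TMM factors) in LY500307-treated KO cells, 75.6 and 77.8 in vehicle-treated KO cells, 238 and 241 in LY500307-treated control cells and 220.0 and 219 in vehicle-treated control cells. All 4 KO libraries were below all 4 control libraries, as the labels say, with transcript still counted in KO cells. Of the epithelial markers, KRT18 had 141 to 163 CPM in KO libraries against 320.2 to 365 CPM in control libraries and KRT8 had 5.29 to 7.49 against 25.1 to 32.1 CPM, while MUC16 stayed under 1 CPM in all 8 libraries. The epithelial markers went both ways between KO and control cells under vehicle. Of 6 tested, PAX8 (log2 fold change 1.57) and WT1 (1.57) were called higher, KRT8 (-1.87), KRT18 (-1.02) and EPCAM (-1.39) lower, and KRT19 (-0.58, adjusted p = 0.197) was not called. Markers of other cells also moved with KO. The 6 fibroblast and mesothelial markers summed to 146 to 237 CPM in KO against 1158 to 1317 CPM in control libraries, with DCN, MSLN and UPK3B under 1 CPM throughout. The 5 endothelial markers summed to 25.9 to 32.6 against 82.9 to 105 CPM, with CLDN5 at 0, and the 6 haematopoietic markers to 62.9 to 75.6 against 96.9 to 112 CPM, with CD3E and HBB at 0. Of the 2 haematopoietic markers tested, LYZ was higher (log2 fold change 2.67) and CD68 lower (-0.67) in KO cells under vehicle. Their part in the results below was not tested.

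Among the hosts of box C/D snoRNAs, GAS5 (growth arrest specific 5, which carries SNORD44, SNORD47 and SNORD74 to SNORD81; GRCh37 chr1:173827697-173838020, minus strand) had 145 and 130.4 CPM in LY500307-treated KO cells, 158 and 151 in vehicle-treated KO cells, 102 and 101 in LY500307-treated control cells and 125 and 127 in vehicle-treated control cells. All 4 groups were separate, in the order LY500307-treated control, vehicle-treated control, LY500307-treated KO and vehicle-treated KO cells, lowest first. SNHG1 (chr11:62619450-62623425, minus strand), which carries SNORD22 and SNORD25 to SNORD31, had 178 and 175 CPM in LY500307-treated KO cells, 187 and 197 in vehicle-treated KO cells, 105 and 117 in LY500307-treated control cells and 150.4 and 163 in vehicle-treated control cells. The order was that of GAS5, again with no overlap, and the LY500307-treated control libraries stood well below the rest.

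SNHG5 (chr6:86360209-86388650, minus strand), the host of SNORD50A and SNORD50B, had 29.3 and 28.6 CPM in LY500307-treated KO cells, 36.8 and 32.7 in vehicle-treated KO cells, 19.0 and 21.3 in LY500307-treated control cells and 25.0 and 24.7 in vehicle-treated control cells. SNHG6 (chr8:67832796-67838633, minus strand), the host of SNORD87, had 70.3 and 69.5 CPM in LY500307-treated KO cells, 86.5 and 85.2 in vehicle-treated KO cells, 55.9 and 56.1 in LY500307-treated control cells and 68.9 and 69.7 in vehicle-treated control cells. Both followed the order of GAS5; in SNHG6 the LY500307-treated KO and the vehicle-treated control libraries overlapped, and in SNHG5 no groups did.

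Of the hosts of box H/ACA snoRNAs, SNHG3 (chr1:28832492-28837404, plus strand), which carries SNORA73A and SNORA73B, had 72.4 and 66.8 CPM in LY500307-treated KO cells, 80.9 and 88.3 in vehicle-treated KO cells, 36.2 and 38.5 in LY500307-treated control cells and 49.9 and 52.1 in vehicle-treated control cells. Every KO library was above every control library, and within KO and within control cells the LY500307-treated libraries were the lower ones. SNHG4 (chr5:138609791-138620588, plus strand), the host of SNORA74A, had 17.0 and 18.2 CPM in LY500307-treated KO cells, 16.4 and 17.7 in vehicle-treated KO cells, 12.1 and 11.1 in LY500307-treated control cells and 19.3 and 17.0 in vehicle-treated control cells. Here the LY500307-treated control libraries alone were low and the other 3 groups overlapped.

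SNHG7 (chr9:139615818-139622636, minus strand), the host of SNORA17 and SNORA43, had 54.9 and 56.1 CPM in LY500307-treated KO cells, 64.2 and 66.6 in vehicle-treated KO cells, 53.2 and 59.7 in LY500307-treated control cells and 74.2 and 81.7 in vehicle-treated control cells. SNHG8 (chr4:119199858-119206471, plus strand), the host of SNORA24, had 32.1 and 29.6 CPM in LY500307-treated KO cells, 43.6 and 37.3 in vehicle-treated KO cells, 31.9 and 31.5 in LY500307-treated control cells and 44.8 and 48.6 in vehicle-treated control cells. In both, vehicle-treated control cells were highest and vehicle-treated KO cells next, and the LY500307-treated KO and control libraries overlapped below them. SNHG12 (chr1:28905050-28909644, minus strand) carries 3 H/ACA snoRNAs (SNORA16A, SNORA44 and SNORA61) and the C/D snoRNA SNORD99, and it had 25.7 and 27.2 CPM in LY500307-treated KO cells, 36.2 and 35.2 in vehicle-treated KO cells, 14.1 and 16.1 in LY500307-treated control cells and 27.5 and 27.0 in vehicle-treated control cells. LY500307-treated control libraries were lowest, vehicle-treated KO libraries highest, and the 2 groups between them overlapped.

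**Figure D1:**
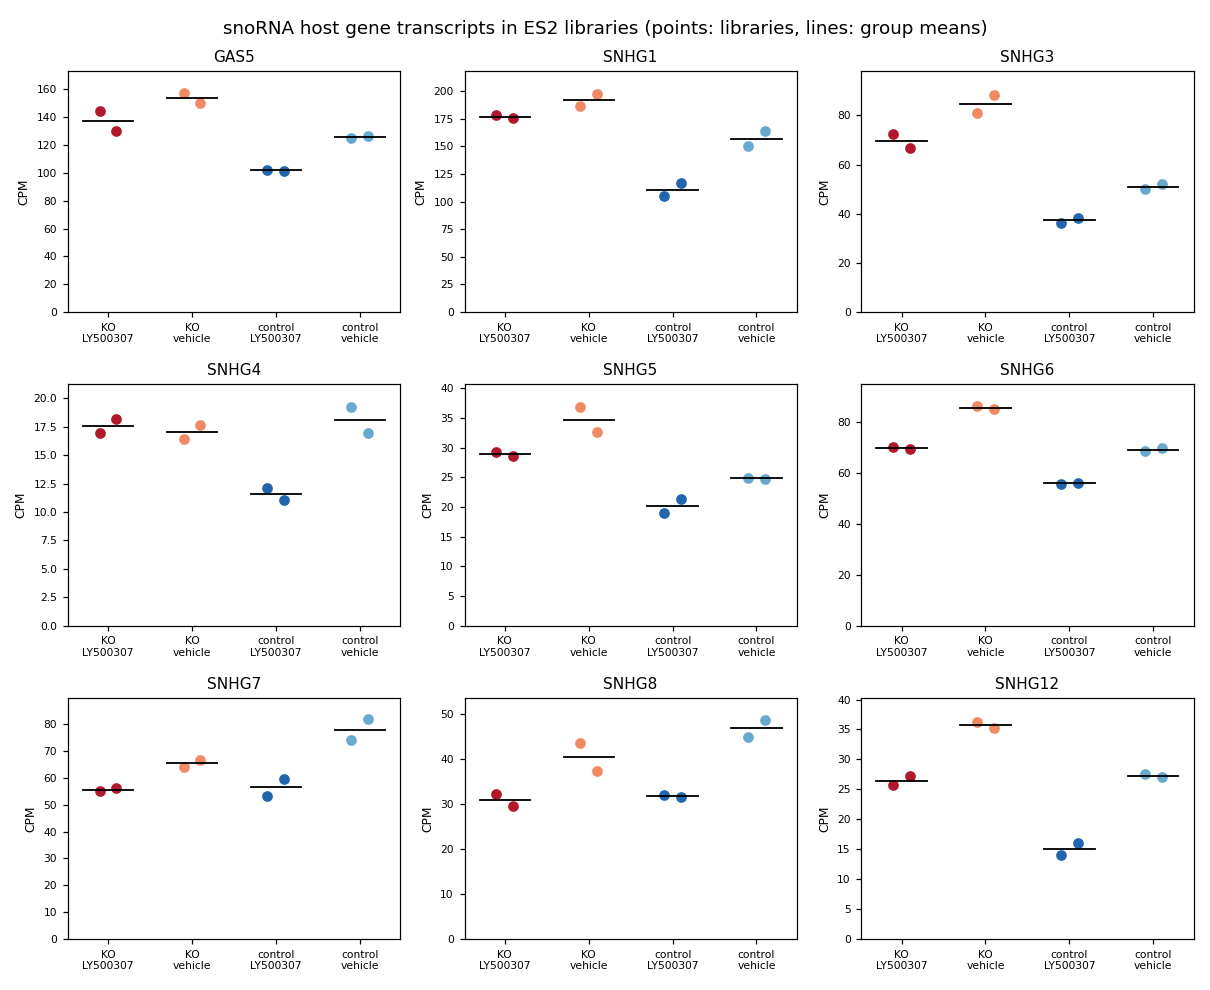
Level in CPM (vertical axis of each panel, from 0) of the 9 snoRNA host genes in the 4 groups, with 1 point per library and a line at the mean of the 2 libraries. The LY500307-treated control libraries are lowest in 7 panels, and in SNHG7 and SNHG8 they overlap the LY500307-treated KO libraries.

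Summed over the 9 genes, the level was 625 and 602 CPM in LY500307-treated KO cells, 709 and 711 in vehicle-treated KO cells, 429.5 and 452 in LY500307-treated control cells and 585 and 611 in vehicle-treated control cells. The sum separated LY500307-treated control cells at the low end and vehicle-treated KO cells at the high end, and the other 2 groups overlapped. Alignments that were not unique, per 100 unique ones, ran the same way: 50.5 and 48.9 in LY500307-treated KO, 52.8 and 52.7 in vehicle-treated KO, 46.6 and 46.6 in LY500307-treated control and 49.6 and 50.5 in vehicle-treated control libraries. Whether this bears on the host gene counts was not tested. In bulk RNA, fewer cells with a transcript and less transcript per cell cannot be told apart.

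All 9 host genes fell with LY500307 in control cells. Each passed edgeR's quasi-likelihood test as lower at an adjusted p under 0.05, against 14.0% of all tested genes called lower in this comparison (12.3% higher, 26.3% in either direction). With library totals in place of TMM factors, 9 of 9 were still lower, while the split of all called genes moved to 2831 higher and 1011 lower, against 1665 higher and 1885 lower with TMM. The median log2 fold change of the 9 genes was -0.47 and that of all tested genes 0.01.

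SNHG12 showed the largest log2 fold change (-0.85 ± 0.09, adjusted p = 1.11e-08; ± is the SE here and for all fold changes below), a change of -44.7% in LY500307-treated relative to vehicle-treated control cells. SNHG4 (-0.64 ± 0.10, adjusted p = 1.96e-05), SNHG8 (-0.56 ± 0.08, adjusted p = 2.33e-06) and SNHG1 (-0.50 ± 0.06, adjusted p = 3.11e-08) followed. SNHG7 (-0.47) and SNHG3 (-0.45) lay near the median. The smallest changes were those of SNHG6 (-0.31), GAS5 (-0.31) and SNHG5 (-0.30 ± 0.09, adjusted p = 0.0106), or -19.2%, -19.1% and -18.9%. For all 9, both LY500307 libraries were below both vehicle libraries, against 30.99% of all tested genes. The call for SNHG5 was lost without vehicle-treated control replicate 1 (-0.30, adjusted p = 0.0576) or LY500307-treated control replicate 1 (-0.22, adjusted p = 0.158).

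In KO cells, 7 of the 9 were lower with LY500307, against 11.3% of all tested genes called lower (9.16% higher, 20.4% in either direction). The median of the 9 was -0.26, against 0.01 over all tested genes. SNHG12 (-0.43 ± 0.08, adjusted p = 0.00017) and SNHG8 (-0.39 ± 0.08, adjusted p = 0.000486) changed most, by -25.8% and -23.6% relative to vehicle. SNHG6 (-0.30 ± 0.06, adjusted p = 0.000289), SNHG3 (-0.28 ± 0.06, adjusted p = 0.00134), SNHG5 (-0.26 ± 0.08, adjusted p = 0.0207), SNHG7 (-0.24 ± 0.07, adjusted p = 0.00945) and GAS5 (-0.16 ± 0.05, adjusted p = 0.0236) were also called. SNHG1 (-0.12 ± 0.05, adjusted p = 0.104, 95% interval -0.23 to -0.01) and SNHG4 (0.05 ± 0.10, adjusted p = 0.783, 95% interval -0.15 to 0.25) did not pass.

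Several of the KO-cell calls rest on 1 library. GAS5 was not called without vehicle-treated KO replicate 1 (-0.13, adjusted p = 0.193) or LY500307-treated KO replicate 2 (-0.10, adjusted p = 0.294), and the same libraries decided SNHG5 (-0.17, adjusted p = 0.265 and -0.25, adjusted p = 0.0844). SNHG3 (-0.22, adjusted p = 0.0704) and SNHG7 (-0.21, adjusted p = 0.104) were not called without vehicle-treated KO replicate 2. With library totals, 4 of the 9 were called lower (SNHG3, SNHG6, SNHG8 and SNHG12), and all called genes split into 2288 higher and 953 lower, against 1237 higher and 1522 lower with TMM.

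**Figure D2:**
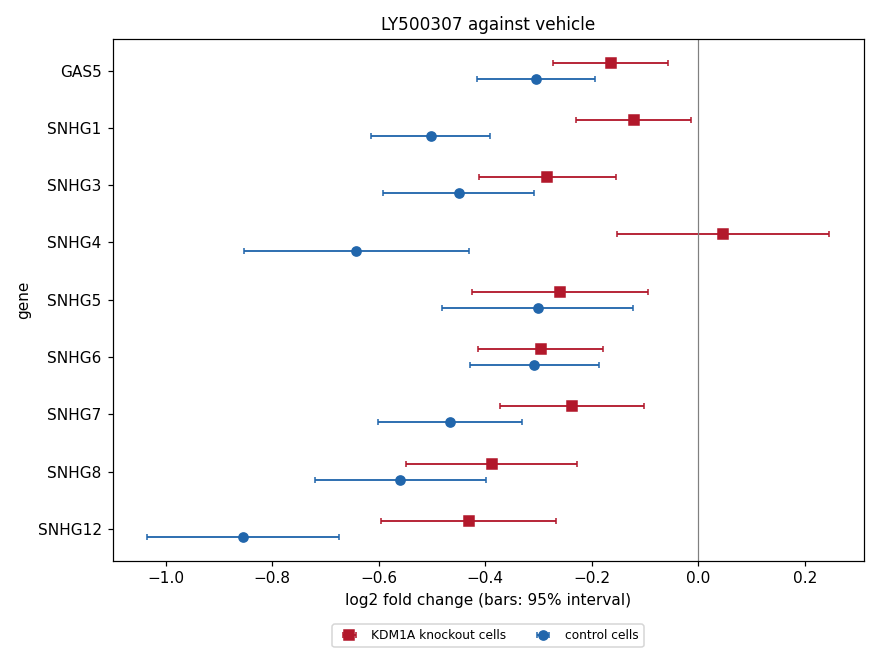
Log2 fold change of LY500307 over vehicle (horizontal axis) for the 9 host genes (rows), with squares for KO cells and circles for control cells, and bars for the 95% interval. All 9 circles lie below 0, and the squares of SNHG1 and SNHG4 lie farthest to the right of their circles relative to their bars.

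The LY500307 effect was compared between KO and control cells by the interaction, positive where the log2 fold change was higher in KO cells. It was called for 2 of the 9, both higher, against 0.526% of all tested genes called higher, 1.09% lower and 1.62% in either direction. SNHG4 had the larger difference (0.69 ± 0.14, adjusted p = 0.00633, interval 0.40 to 0.98): LY500307 left 17.0 and 18.2 CPM in KO cells, against 16.4 and 17.7 under vehicle, and 12.1 and 11.1 in control cells, against 19.3 and 17.0 under vehicle. SNHG1 differed by 0.38 ± 0.08 (adjusted p = 0.00451, interval 0.23 to 0.54), with LY500307 levels at -8.07% relative to vehicle in KO cells and -29.4% in control cells. SNHG12 had an interaction of 0.42 ± 0.12, adjusted p = 0.0623, and those of the other 6 lay between 0.01 (SNHG6, interval -0.16 to 0.18) and 0.23 (SNHG7, interval 0.04 to 0.42).

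Both calls depend on the control libraries. SNHG1 was not called without vehicle-treated control replicate 2 (0.32, adjusted p = 0.0512) or LY500307-treated control replicate 1 (0.30, adjusted p = 0.0726). SNHG4 was not called without vehicle-treated control replicate 1 (0.59, adjusted p = 0.0625) or LY500307-treated control replicate 2 (0.63, adjusted p = 0.0614).

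Under vehicle, 6 of the 9 host genes were higher and 2 lower in KO than in control cells. Of all tested genes, 64.0% were called in this comparison (30.7% higher, 33.3% lower), so most tested genes were called here, in both directions. The median of the 9 was 0.29, against -0.01 over all tested genes. SNHG3 was highest relative to control (0.73 ± 0.07, adjusted p = 8.50e-12, a level 66.0% higher), then SNHG5 (0.48 ± 0.08, adjusted p = 7.03e-06), SNHG12 (0.39 ± 0.08, adjusted p = 9.25e-05), SNHG6 (0.31 ± 0.06, adjusted p = 2.30e-05), GAS5 (0.29 ± 0.05, adjusted p = 1.35e-05) and SNHG1 (0.29 ± 0.05, adjusted p = 1.51e-05).

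SNHG7 (-0.25 ± 0.07, adjusted p = 0.00112) and SNHG8 (-0.21 ± 0.08, adjusted p = 0.0177) were lower in KO cells, and SNHG4 was not called (-0.09 ± 0.10, adjusted p = 0.453). SNHG7 was not called without vehicle-treated control replicate 2 (-0.18, adjusted p = 0.0513). SNHG8 was not called without that library (-0.15, adjusted p = 0.179) or vehicle-treated KO replicate 2 (-0.10, adjusted p = 0.367), with library totals (-0.16, adjusted p = 0.0634) or with DESeq2 (-0.20, adjusted p = 0.0566).

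The median KO effect of tested genes within 5 Mb was 0.30 around SNHG12 and 0.30 around SNHG3, which lie close together on chromosome 1, and 0.13 around GAS5, -0.12 around SNHG8 and -0.29 around SNHG6. Less the local median, SNHG12 (0.09, adjusted p = 0.352) and SNHG8 (-0.09, adjusted p = 0.328) were not called, GAS5 was 0.16, adjusted p = 0.00871, SNHG3 was 0.43, adjusted p = 9.42e-07, and SNHG6 was 0.60, adjusted p = 7.25e-11. Here and below, these p-values take the local median as fixed and use the SE of the host gene alone. The spread among neighbouring genes is left out, so they do not measure whether a host departs from its neighbours. The median rested on 24 genes around SNHG6 and 35 around GAS5. Copy number was not measured, and its part was not tested.

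Under LY500307, 7 of the 9 were higher in KO than in control cells and none was lower, against 32.6% of all tested genes called higher (33.6% lower, 66.2% in either direction). The median was 0.52, against -0.01 over all tested genes. SNHG3 (0.90 ± 0.07, adjusted p = 7.33e-14), SNHG12 (0.81 ± 0.09, adjusted p = 5.46e-10) and SNHG1 (0.67 ± 0.05, adjusted p = 5.29e-13) had levels 86.4%, 75.7% and 59.5% above LY500307-treated control cells. SNHG4 (0.60 ± 0.10, adjusted p = 4.07e-06), SNHG5 (0.52), GAS5 (0.43) and SNHG6 (0.32) were also called. SNHG7 (-0.02, interval -0.16 to 0.11) and SNHG8 (-0.04, interval -0.20 to 0.12) were not. The 7 calls held in each of the alternatives run, but less the local median some values moved, to 0.47 for SNHG12, 0.56 for SNHG3, 0.28 for GAS5 and 0.56 for SNHG6.

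**Figure D3:**
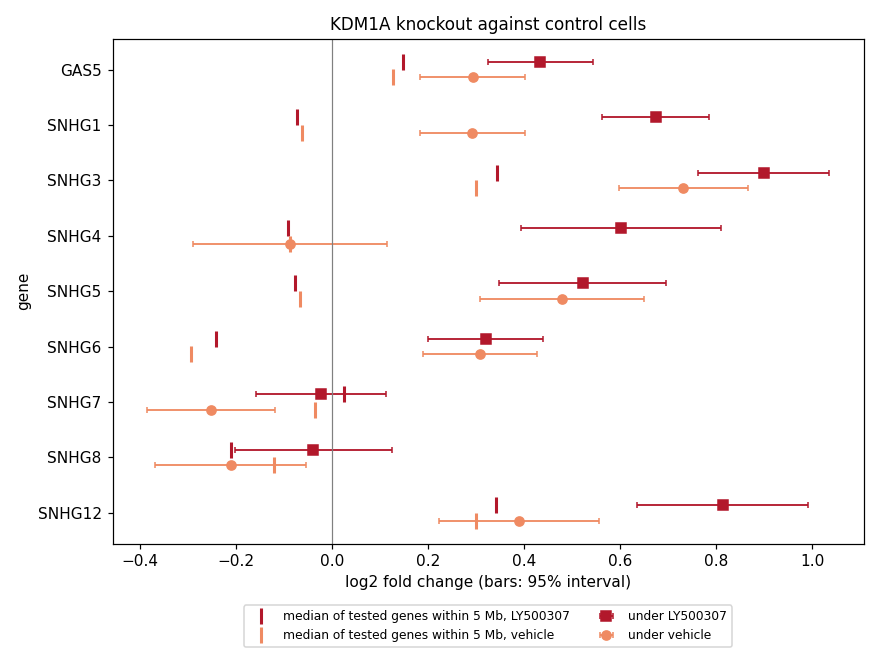
Log2 fold change of KO over control cells (horizontal axis) for the 9 host genes (rows), with squares under LY500307, circles under vehicle, bars for the 95% interval and upright ticks for the median of tested genes within 5 Mb. Squares and circles of SNHG5 and SNHG6 nearly coincide, the square of SNHG4 lies far right of its circle, and for SNHG12 under vehicle the local median falls inside the interval.

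With both factors together, LY500307-treated KO cells against vehicle-treated control cells, 4 of the 9 were higher and 2 lower, where 67.9% of all tested genes were called (33.1% higher, 34.8% lower). With library totals the called genes split into 5473 higher and 3823 lower, against 4467 higher and 4702 lower with TMM. SNHG3 (0.45 ± 0.07, adjusted p = 3.59e-07), SNHG5 (0.22 ± 0.09, adjusted p = 0.0227), SNHG1 (0.17 ± 0.05, adjusted p = 0.0058) and GAS5 (0.13 ± 0.05, adjusted p = 0.035) were higher, and SNHG8 (-0.60 ± 0.08, adjusted p = 3.73e-08) and SNHG7 (-0.49 ± 0.07, adjusted p = 6.16e-08) lower. SNHG6 (0.01), SNHG4 (-0.04) and SNHG12 (-0.04) were not called. These comparisons share libraries, so their values stand side by side and are not independent of each other.

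The smaller of these calls rest on single libraries. Without vehicle-treated control replicate 1, GAS5 (0.12, adjusted p = 0.134), SNHG1 (0.11, adjusted p = 0.145) and SNHG5 (0.22, adjusted p = 0.0684) were not called. GAS5 and SNHG5 were not called either without vehicle-treated control replicate 2 (0.13, adjusted p = 0.0851 and 0.21, adjusted p = 0.0877) or LY500307-treated KO replicate 1 (0.05, adjusted p = 0.515 and 0.20, adjusted p = 0.0885). Less the local median, GAS5 (-0.09, adjusted p = 0.121) and SNHG3 (0.05, adjusted p = 0.482) were not called, SNHG12 was called lower (-0.44, adjusted p = 2.75e-05) and SNHG6 higher (0.22, adjusted p = 0.00156).

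The files also list snoRNA genes that lie in the introns of these hosts. Of 31 such genes, 29 were in the files and 25 had enough counts to test. Their counts were low, and in these libraries reads of mature snoRNAs and of unspliced host RNA cannot be told apart. Over all 29, libraries held 1228 and 1364 counts in LY500307-treated KO cells, 1486 and 1906 in vehicle-treated KO cells, 745 and 874 in LY500307-treated control cells and 1075 and 1125 in vehicle-treated control cells. In CPM these sums were 46.0 and 47.6, 60.2 and 63.8, 26.0 and 31.2 and 45.8 and 48.0 in the same order of groups. LY500307-treated control cells were lowest and vehicle-treated KO cells highest, with the other 2 groups overlapping between them, as in the sum of the hosts.

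The 10 snoRNA genes in GAS5 summed to 23.5 and 24.9 CPM in LY500307-treated KO, 29.9 and 32.1 in vehicle-treated KO, 13.2 and 16.9 in LY500307-treated control and 24.6 and 24.7 in vehicle-treated control cells. The 8 in SNHG1 summed to 14.2 and 15.0, 20.2 and 19.9, 9.40 and 9.92 and 14.7 and 16.2 CPM, and the 4 in SNHG12 to 4.65 and 4.64, 6.52 and 7.83, 1.68 and 2.25 and 3.67 and 4.31 CPM, in that order of groups. In all 3 the LY500307-treated libraries were below the vehicle-treated libraries, in KO as in control cells. The transcript of SNHG1 itself was also below in KO cells (178 and 175 CPM with LY500307 against 187 and 197 with vehicle), though not called. SNORA73A and SNORA73B of SNHG3 were not among the genes listed, so SNHG3 has no snoRNA values here. The snoRNA genes of the remaining hosts were sparse, with sums of at most 1.99 CPM, and SNORA17 and SNORA43 of SNHG7 were at 0. Among the 7 hosts with counts on their snoRNA genes, LY500307-treated control libraries were below vehicle-treated ones in 6, and those of SNHG6 overlapped. Of all tested genes, 30.99% were below in this way. Few counts lie behind some of these, such as SNORA74A of SNHG4 with 1 and 0 against 2 and 3. In KO cells the LY500307-treated libraries were below in 4 (GAS5, SNHG1, SNHG6 and SNHG12) and overlapped for SNHG5 and SNHG8. They were above for SNHG4, whose SNORA74A had 5 and 4 counts with LY500307 against 1 and 3 with vehicle. Few counts also lie behind SNHG6, whose SNORD87 had 25 and 27 counts with LY500307 against 24 and 40 with vehicle in KO cells. Of all tested genes, 27.77% were below and 30.63% above in KO cells.

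With LY500307 in control cells, 8 of the 25 tested snoRNA genes were lower and 0 higher (median -0.65), where 14.0% of all tested genes were called lower. Among the 8 were SNORD76 (-1.27 ± 0.25, adjusted p = 0.000266), SNORA61 (-1.25 ± 0.28, adjusted p = 0.00108) and SNORD47 (-0.59 ± 0.14, adjusted p = 0.0016). In KO cells 3 were lower and 0 higher (median -0.40), a share near the 11.3% of all tested genes called lower. These were SNORD25 (-0.83 ± 0.26, adjusted p = 0.0193), SNORD47 (-0.40 ± 0.12, adjusted p = 0.0201) and SNORA61 (-0.69 ± 0.23, adjusted p = 0.0263). Between KO and control cells under vehicle, 9 of 25 were higher and 0 lower (median 0.35), such as SNORA44 (1.70 ± 0.38, adjusted p = 0.000189) and SNORD27 (1.27 ± 0.31, adjusted p = 0.00056), and the share called higher is near the 30.7% of all tested genes. Under LY500307, 16 of 25 were higher and 0 lower (median 0.75), such as SNORD76 (1.42 ± 0.24, adjusted p = 3.35e-06), where 32.6% of all tested genes were called higher. The interaction was called for 0 of 25.

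**Figure D4:**
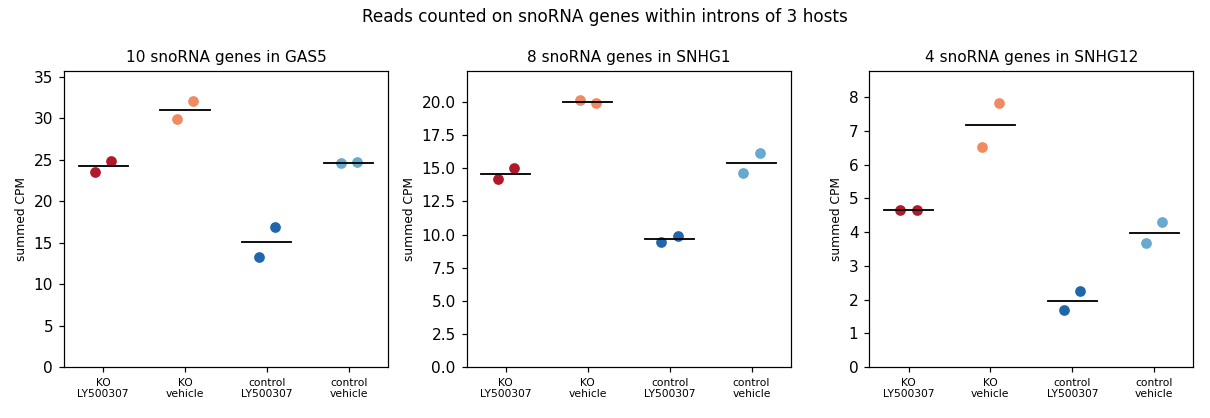
Summed level in CPM (vertical axis, from 0) of the snoRNA genes within GAS5, SNHG1 and SNHG12 in the 4 groups, with 1 point per library and a line at the mean of 2 libraries. In each panel vehicle-treated KO libraries are highest and LY500307-treated control libraries lowest.

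Other genes overlap or adjoin the hosts. How HTSeq treated strand is unknown here, so reads from overlapping genes on opposite strands cannot be told apart. SNHG3 lies within the bounds of RCC1 on the same strand, and RCC1, a chromatin-bound exchange factor for RAN, did not pass for KO against control under vehicle (0.04 ± 0.05, adjusted p = 0.456). RCC1 did pass in the direction of SNHG3 for KO under LY500307 (0.17 ± 0.05, adjusted p = 0.00176) and for LY500307 in control cells (-0.13 ± 0.05, adjusted p = 0.04), with smaller fold changes than SNHG3. SNHG4 lies within MATR3, an RNA-binding nuclear matrix protein gene on the same strand, and within SIL1, a chaperone cofactor gene on the opposite strand. For LY500307 in control cells MATR3 changed by -0.16 (adjusted p = 0.00387) against -0.64 for SNHG4. The interaction was -0.41 (adjusted p = 0.0338) for SIL1 and 0.13 (adjusted p = 0.297) for MATR3.

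SNHG1 starts 51 bases from SLC3A2, a heavy chain of amino acid transporters, on the other strand. SLC3A2 was higher in KO than control cells under vehicle (1.19 ± 0.05, adjusted p = 2.64e-21) and higher with LY500307 in control cells (0.24 ± 0.05, adjusted p = 0.000394), where SNHG1 was lower. PRSS12, a secreted protease gene that overlaps SNHG8 on the opposite strand, was lower in KO cells under vehicle (-1.34 ± 0.07, adjusted p = 1.12e-17), and the change was larger than that of SNHG8 (-0.21). ZBTB37, which overlaps GAS5 on the opposite strand, was higher in KO cells under vehicle (0.51 ± 0.17, adjusted p = 0.0109). It was also higher with LY500307 in control cells (0.62, adjusted p = 0.00676), where GAS5 was lower. TRNAU1AP and TAF12 near SNHG12 had KO effects under vehicle of 0.20 (adjusted p = 0.115) and 0.32 (adjusted p = 0.0031). With LY500307 in control cells, where SNHG12 was lower, TRNAU1AP was higher (0.35, adjusted p = 0.0171) and TAF12 was not called (0.02, adjusted p = 0.882). C8orf45 (MCMDC2), which overlaps SNHG6, had 0 counts in all 4 KO libraries and 9 to 23 in control libraries, and FAM69B, which overlaps SNHG7, had at most 6 counts in any library.

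Further long non-coding snoRNA hosts were listed for comparison. Of 13 named, 8 were in the files, some under older symbols. With LY500307 in control cells, 6 of the 8 were lower and 0 higher (median -0.52), where 14.0% of all tested genes were called lower. Among the 6 were ZNFX1-AS1 (now ZFAS1, -0.43 ± 0.05, adjusted p = 2.26e-07), KIAA0114 (now DANCR, -0.57 ± 0.07, adjusted p = 2.08e-07) and C7orf40 (now SNHG15, -0.60 ± 0.08, adjusted p = 4.02e-07). In KO cells 2 were lower, where 11.3% of all tested genes were called lower: KIAA0114 (-0.58 ± 0.07, adjusted p = 1.89e-07) and ZNFX1-AS1 (-0.15 ± 0.05, adjusted p = 0.0383). The interaction was called for C7orf40 (0.41 ± 0.11, adjusted p = 0.0351) and ZNFX1-AS1 (0.28 ± 0.07, adjusted p = 0.0357), both higher in KO cells, in the direction of SNHG1 and SNHG4. Of all tested genes, 0.526% were called higher by the interaction. Between KO and control cells under vehicle 1 was higher (ZNFX1-AS1, 0.36) and 2 lower (SNHG9, -1.67, and SNHG11, -0.76), so 3 of 8 were called where 64.0% of all tested genes were.

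Protein-coding snoRNA hosts, mostly ribosomal protein and translation factor genes, were lower in 29 of 31 and higher in 1 with LY500307 in control cells (median -0.22), and lower in 22 and higher in 1 in KO cells (median -0.18). Examples in control cells are NOP56 (-0.37 ± 0.04, adjusted p = 5.33e-08), a core protein of C/D snoRNPs, and the elongation factor gene EEF2 (-0.30 ± 0.04, adjusted p = 1.54e-07). The gene called higher in both, named after its values were seen, was HSPA8 (0.14 in KO and 0.10 in control cells), a chaperone. EIF4A1 and RPL21, also on the list, are listed at 0 in all 8 libraries and were not tested. Translation factor genes with 5′TOP mRNAs were lower in 14 of 19 and higher in 0 in control cells (median -0.24), and lower in 11 and higher in 0 in KO cells (median -0.17). Beside these counts and those of the protein-coding hosts, 14.0% of all tested genes were called lower in control cells and 11.3% in KO cells. EEF2, EEF1B2, TPT1 and GNB2L1 are on both lists.

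With LY500307, 11.3% of all tested genes were called lower and 9.16% higher in KO cells, and 14.0% lower and 12.3% higher in control cells. Of 18 genes for snoRNP core and assembly factors, 6 were lower and 0 higher in control cells (median -0.06), with NOP56, NOLC1 (-0.21), NOP58 (-0.22) and the pseudouridine synthase gene DKC1 (-0.20) as examples, and 2 were lower and 1 higher in KO cells. Between KO and control cells under vehicle 4 were higher and 8 lower, with NOP58 at 0.60 and RUVBL1 at -0.73, where 30.7% of all tested genes were called higher and 33.3% lower. Of 20 nonsense-mediated decay factors, 5 were lower and 0 higher with LY500307 in control cells, including the kinase gene SMG1 (-0.31 ± 0.05, adjusted p = 6.47e-05) and the helicase gene UPF1 (-0.21 ± 0.05, adjusted p = 0.00375), and 1 was lower and 1 higher in KO cells. Of 7 known protein-coding targets of nonsense-mediated decay, 4 were higher and 1 lower with LY500307 in control cells, and 4 higher and 0 lower in KO cells. IFRD1 had log2 fold changes of 0.39 in KO and 0.48 in control cells, ATF3 0.61 and 0.69, and ATF4, the gene called lower, -0.02 (adjusted p = 0.801) and -0.27 (adjusted p = 2.92e-05).

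**Figure D5:**
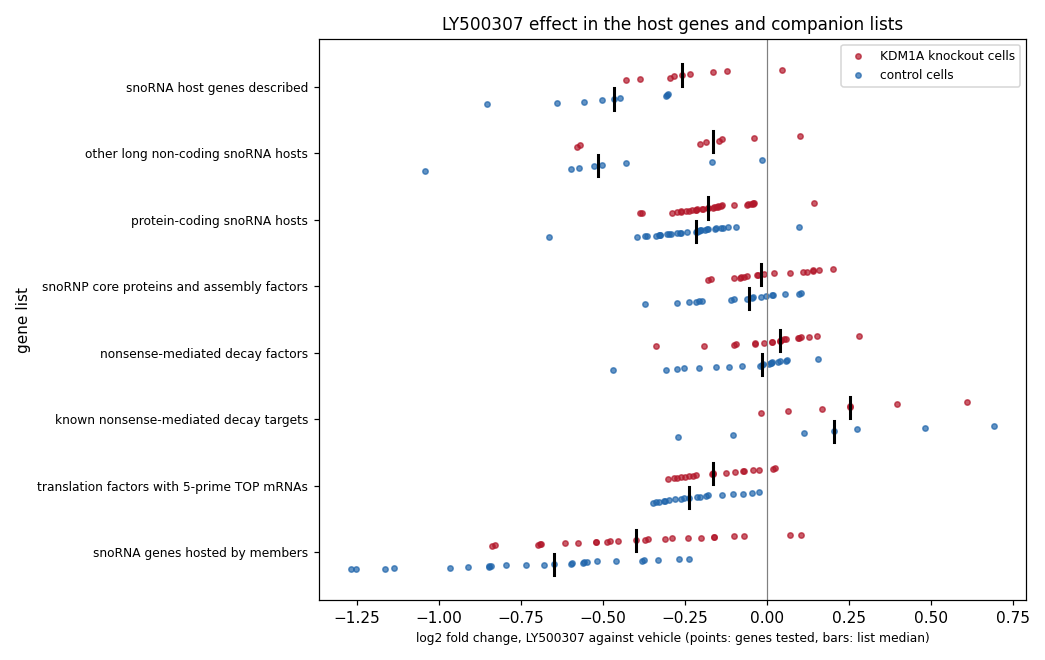
Log2 fold change of LY500307 over vehicle (horizontal axis) of the tested genes of each list (rows), with red points for KO cells, blue points for control cells and a black bar at the list median. The 9 hosts, the other long non-coding and protein-coding hosts, the snoRNA genes and the 5′TOP translation factor genes lie mostly below 0. The nonsense-mediated decay targets lie mostly above.

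The genes most like the mean of the 9 hosts across the 8 libraries were named by the root mean square difference of log2 CPM, each gene centred on its own mean, among genes of at least 5 CPM. Antisense, small RNA, LOC, LINC, KIAA, NCRNA, FAM, TMEM and open reading frame symbols, among others, were left out of this ranking. This removed other snoRNA hosts such as ZNFX1-AS1, KIAA0114 and C7orf40, so their likeness is not shown. Of the genes kept, the most alike were DNLZ (0.0487), ORAOV1 (0.0526), NOP56 (0.0550), SRSF5 (0.0552) and PABPC4 (0.0584). The 9 hosts themselves lay at 0.0703 (SNHG6) to 0.249 (SNHG8), and SNHG7 (0.243) and SNHG3 (0.241) were nearly as far. PABPC4, for example, averaged 512 ± 5.50 CPM in LY500307-treated KO, 611 ± 4.91 in vehicle-treated KO, 387 ± 3.21 in LY500307-treated control and 489 ± 8.61 in vehicle-treated control cells (SD, n = 2), the group order of most hosts.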

How the data were processed

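RNA of 8 ES2 libraries was sequenced as single-end reads of 50 bases, per the labels' protocols. These name a stranded mRNA kit in one place and a total RNA guide in another. The authors deposited whole-number read counts per gene symbol, 1 file per library, and per the submitters' processing notes the tools were HTSeq, TopHat2 2.0.8b and bcl2fastq, with build hg19. The series text speaks of combined reads, yet the 2 libraries of a group differed beyond counting noise (chi-square divided by its degrees of freedom, 3.05 to 4.30) and were kept apart. HTSeq's summary entries were removed before library sizes were taken: reads outside genes made up 10.7% to 12.8% and ambiguous reads 0.811% to 0.861% of unique alignments. All sample columns were used (0 left out). CPM were computed with TMM-scaled totals.

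Of 23228 genes, 5520 had no count and filterByExpr kept 13498. One edgeR 4.0.16 quasi-likelihood model (R 4.3.3, TMM, a mean for each of 4 groups) was fitted to all 8 libraries, with a biological coefficient of variation of 3.95%, and tested by glmQLFTest, two-sided, for 6 comparisons: the KO effect with LY500307 and with vehicle, the LY500307 effect in KO and in control cells, both factors together, and the interaction. Adjusted p-values of this fit are Benjamini-Hochberg over the 13498 genes and called at 0.05. Those of the alternatives below are over the genes tested in each, such as 12027 less the local median and 17708 with no filter. Intervals are at the 95% level. Fold changes are log2, KO over control and LY500307 over vehicle. Their SE is the absolute log2 fold change divided by the square root of the F statistic of the test, and the intervals are built from this SE.

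Alternatives were library totals, DESeq2 size factors, the DESeq2 1.42.0 Wald test, no filter, only the compared groups, a replicate block and each library left out in turn. A further one was removal of the median of at least 20 tested genes within 5 Mb, taken as a fixed value. The 9 genes, the companion lists and the alternatives were chosen with earlier results of these data known. Named are the 9 genes, up to 4 genes of a list by smallest p among those called, and genes overlapping or within 5 kb of a host. Also named are the 5 most alike genes among the symbols kept for that ranking. Some items that this rule or the marker lists would name are not reported here. Positions are from GENCODE 44 lifted to GRCh37, matched to hg19 symbols, and promoters from RefSeq. The procedure was also run on simulated counts in which few genes changed, in a single group. Error rates where most genes are called, as between KO and control cells, were not tested in this way.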

Additional observations from a re-analysis of the deposited data

Results flagged for a closer look

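The LY500307 effect differed between KO and control cells, by the interaction term, for 2 of the 9 host genes. SNHG4 differed by 0.69 ± 0.14 (adjusted p = 0.00633): its log2 fold change with LY500307 was 0.05 in KO cells and -0.64 in control cells, and both LY500307-treated control libraries were below all other libraries. SNHG1 differed by 0.38 ± 0.08 (adjusted p = 0.00451), with -0.12 in KO cells and -0.50 in control cells.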

How the results depend on the processing

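The count of host genes called stayed within 1.5 times the reported count in every alternative that kept all libraries, except that 4 rather than 7 were lower with LY500307 in KO cells under library totals; the cause was not tested. With 1 library left out, the lone library of its group being assumed to vary like the others, the count was 6 to 8 for KO under vehicle, 8 to 9 for LY500307 in control cells, 5 to 7 for LY500307 in KO cells, 7 for KO under LY500307, 3 to 6 for both factors and 1 to 2 for the interaction. Directions turned for values that were not called, apart from GAS5 under both factors. Under library totals, which moved the median of all tested genes under both factors to 0.10 from -0.01, these were SNHG7 for KO under LY500307 (0.0099), SNHG12 (0.064) and SNHG4 (0.065) under both factors and SNHG6 for the interaction (-0.0018). Less the local median they were SNHG8 for KO under LY500307 (0.17) and, under both factors, GAS5 (-0.095) and SNHG4 (0.034). With 1 library left out, values ranged across 0 for SNHG4 for KO under vehicle (-0.18 to 0.0064), for LY500307 in KO cells (-0.012 to 0.10, with -0.0054 without vehicle-treated KO replicate 1) and under both factors (-0.13 to 0.051, with 0.0041 without LY500307-treated KO replicate 1), for SNHG7 (-0.11 to 0.063) and SNHG8 (-0.11 to 0.015) for KO under LY500307, for SNHG6 under both factors (-0.00053 to 0.021) and for the interaction (-0.012 to 0.020), and for SNHG5 for the interaction (-0.043 to 0.13). Over all tested genes, calls for LY500307 in control cells numbered 2160 to 2326 with a library left out, against 3550; for LY500307 in KO cells 1422 without vehicle-treated KO replicate 2, against 2759; and for the interaction 95 to 262 with a library left out and 350 with no filter, against 218. The deviations of same-numbered libraries had r of -0.010 to 0.063 across genes. Counting noise in genes with few counts lowers such an r, so it cannot decide whether the replicate numbers pair the samples. With the replicate block, 3 host genes were called for the interaction, SNHG12 among them (0.42, adjusted p = 0.0217), 8 for LY500307 in KO cells, SNHG1 among them (-0.12, adjusted p = 0.0303), and 643 genes in all for the interaction; no other call on a host gene changed. Duplicates and 2 libraries a group limit every comparison, and low counts limit the snoRNA genes.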
